A study of Homo sapiens with 6 samples.

Results

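The genes described here are 34 genes of fatty acid synthesis, triglyceride assembly, lipid droplets and lipolysis, taken by symbol from a table of 33117 gene rows, in which all 34 were found. They were grouped by role into 14 genes of synthesis, 12 of triglyceride assembly and storage, and 8 of lipolysis and fatty acid carriage. Expression was measured by RNA sequencing in WPMY-1, an immortalised stromal line of the normal human prostate, grown in medium with serum. The shCtrl group (3 libraries) carried the pLKO1 lentiviral vector, and the shCAVIN1 group (3 libraries) carried a lentiviral short hairpin RNA against CAVIN1, a coat protein of caveolae, and cells of the knockdown were selected with puromycin as stable clones. The labels call the 3 libraries of a group independent biological replicates without naming separate clones or transductions. The p-values below therefore reflect how far these libraries lie from each other, and 1 hairpin was used. Values are FPKM (fragments per kilobase of transcript, scaled to the mapped fragments of the library), given as mean ± SD with n = 3.

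De novo fatty acid synthesis turns citrate into acetyl-CoA, malonyl-CoA and then palmitate, which elongases lengthen and desaturases give double bonds. Fatty acids are joined to glycerol phosphate by acyltransferases, lipin phosphatases and diacylglycerol acyltransferases, and the triglyceride is stored in droplets coated by perilipins until lipases release it again. Caveolae are linked to this pathway because loss of CAVIN1, of CAV1, of AGPAT2 or of BSCL2 causes congenital generalised lipodystrophy, a near absence of body fat.

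The target of the hairpin, as the labels give it, is shown here because every comparison rests on it.

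Hairpin target: GTGGAGGTTGAGGAGGTTATT

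This 21-base sequence matched 1 of 206694 GENCODE 29 transcripts, one of CAVIN1, and none of the 339 transcripts of the 34 genes, on either strand. CAVIN1, listed under its older symbol PTRF, fell to 42.0% of its control level, from 336 ± 9.78 to 141 ± 8.33 FPKM (limma log2 fold change -1.25, SE 0.0586, adjusted p = 2.88e-05). Each library showed between 19649 and 20435 rows above 0, and the FPKM sum of a library lay between 758837 and 1043843, of which the 10 most abundant rows took 19.0% to 42.3%. All 8 stromal markers reached 1 FPKM in every library (summed level 1205 to 1326 FPKM in shCtrl and 2017 to 2063 in shCAVIN1). Of these, S100A6 alone passed as higher (mean 430.2 and 1512 FPKM), 4 passed as lower, FN1 (199.0 and 57.8 FPKM), COL1A2 (85.5 and 9.78), THY1 (160.4 and 100.5) and LUM (4.76 and 3.02), and VIM, COL1A1 and PDGFRB did not pass. None of 8 adipocyte markers reached 1 FPKM in any library (summed level 0.378 to 0.405 and 0.423 to 0.484 FPKM), and leptin (LEP) was listed at 0 in all 6. Of 7 prostate epithelial markers 2, KRT18 and KRT8, reached 1 FPKM in all libraries, and the list summed to 396.9 to 430.8 FPKM in shCtrl and 240.5 to 255.4 in shCAVIN1. KRT18 passed as lower (mean 384.9 and 219.0 FPKM) and KRT8 as higher (23.5 and 28.6), while the secretory marker KLK3 was listed at 0 throughout. The leukocyte list summed to 7.86 to 8.57 and 10.04 to 10.3 FPKM, with CD68 higher (mean 6.44 and 9.25 FPKM) and CD14 lower (1.22 and 0.508), and no endothelial marker reached 1 FPKM. The part of these marker shifts in the results below was not tested, and in RNA from whole cultures fewer cells of a type and less RNA per cell cannot be told apart.

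Of the 34 genes, 33 had a mean of at least 0.5 FPKM over the 6 libraries and were tested with limma on log2(FPKM + 0.5). The threshold was an adjusted p of 0.05 (Benjamini-Hochberg over all 13941 tested genes), and 16 rose, 6 fell and 11 did not pass. Among all tested genes, 27.3% passed as higher and 28.2% as lower, 55.5% in all, so the share of the 33 genes that passed (66.7%) lay near the background, and the share that rose (48.5%) lay above it. The median log2 fold change was 0.19 for the 33 genes and -0.02 for all tested genes, and 12 of the 33 passed with a change of at least 1.5-fold on that scale, against 18.0% of all tested genes. The groups did not overlap for 25 of the 33 genes, 16 higher and 9 lower, against 64.6% of all tested genes, 31.3% higher and 33.3% lower. The genes were chosen with earlier results of these data known, so these shares and medians are a description and not a test. After rescaling of each library to TPM, a scale on which all libraries have 1 sum, 64.4% of all genes that passed were higher, against 49.2% as deposited. LPIN3, a lipin, was below the filter at 0.112 ± 0.0207 FPKM in shCtrl and 0.113 ± 0.0246 in shCAVIN1.

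**Figure D1:**
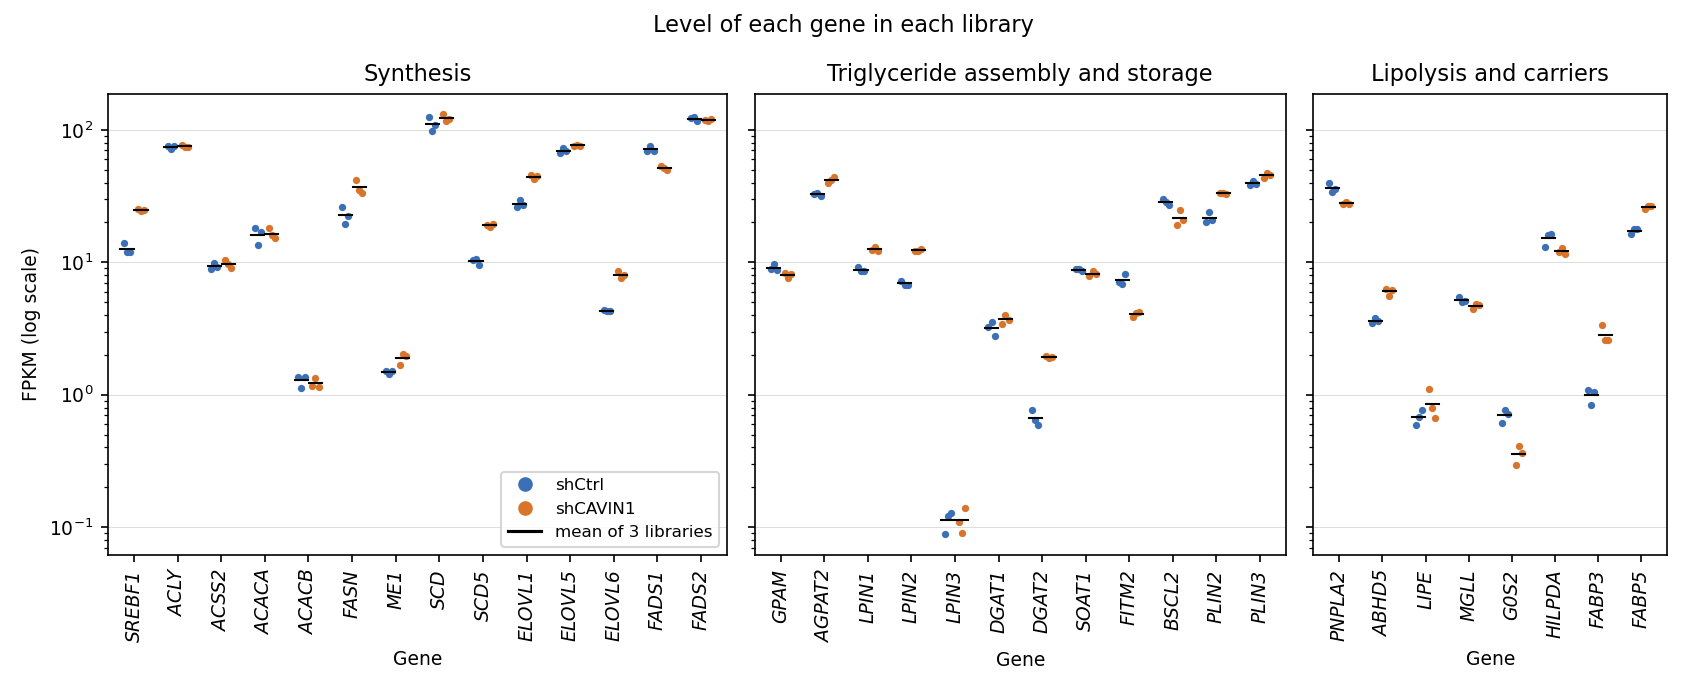
FPKM on a log axis for each of the 34 genes, with 1 point per library and a bar at the mean of 3 libraries, in blue for shCtrl and orange for shCAVIN1. SREBF1, SCD5, ELOVL6, DGAT2, LPIN2, PLIN2, ABHD5 and FABP3 lie apart upward in shCAVIN1 and FADS1, FITM2, PNPLA2 and G0S2 apart downward, while ACLY, ACACA, SCD and FADS2 overlap.

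In synthesis, 7 of 14 genes rose, 1 fell and 6 did not pass (median log2 0.14). SREBF1 encodes SREBP-1, the transcription factor that drives lipogenic genes, and lies on chromosome 17 at 17810399 to 17837002, minus strand (GRCh38). Its level was 13.9, 11.9 and 11.96 FPKM in shCtrl replicates 1 to 3 and 25.3, 24.4 and 25.0 FPKM in shCAVIN1 replicates 1 to 3. Every shCAVIN1 library was above every shCtrl library, and the fold change was 1.98 (log2 0.96, SE 0.0671, limma adjusted p = 0.000111). The enzymes that carry citrate to palmitate split. ACLY, which cleaves citrate to acetyl-CoA, was at 76.0, 71.0 and 75.1 FPKM in shCtrl and 76.3, 73.8 and 74.4 FPKM in shCAVIN1, so the groups overlapped (log2 0.02, 95% interval -0.09 to 0.12). ACACA, the cytosolic acetyl-CoA carboxylase, did not pass either, at 16.2 ± 2.41 and 16.4 ± 1.43 FPKM (interval -0.26 to 0.32), nor did the mitochondrial form ACACB, at 1.29 ± 0.138 and 1.22 ± 0.109 FPKM (interval -0.28 to 0.17), and the share of ACACA in the sum of both overlapped between the groups at 92.6% ± 0.397 and 93.1% ± 0.804. FASN, the synthase that assembles palmitate, was at 25.9, 19.3 and 22.5 FPKM in shCtrl and at 41.9, 35.3 and 33.3 FPKM in shCAVIN1. It rose 1.63-fold without overlap (log2 0.70, SE 0.129, limma adjusted p = 0.00471), with the largest SE among the synthesis genes that rose. ACSS2, which makes acetyl-CoA from acetate, was at 9.34 ± 0.487 and 9.67 ± 0.644 FPKM and did not pass (interval -0.11 to 0.20). ME1, the malic enzyme that supplies NADPH, rose 1.27-fold from 1.49 ± 0.0549 to 1.89 ± 0.182 FPKM (limma adjusted p = 0.0301). The ME1 call was lost when shCtrl replicate 1, 2 or 3 or shCAVIN1 replicate 2 or 3 was left out, at adjusted p of 0.0556 to 0.0964.

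All 3 elongases rose, by unequal amounts. ELOVL6, which lengthens palmitate to stearate, was at 4.33, 4.29 and 4.30 FPKM in shCtrl and at 8.53, 7.58 and 7.97 FPKM in shCAVIN1, a 1.86-fold rise (log2 0.82, SE 0.0544, limma adjusted p = 8.89e-05). ELOVL1, an elongase of saturated and monounsaturated very long chains, rose 1.61-fold, from 25.9, 29.6 and 27.0 FPKM to 45.2, 42.7 and 44.8 FPKM (log2 0.68, SE 0.0590, adjusted p = 0.000232). ELOVL5, the elongase of polyunsaturated chains and the most abundant of the 3 per length, rose 1.10-fold from 69.6 ± 2.74 to 76.3 ± 0.692 FPKM (adjusted p = 0.0396). The ELOVL5 call was lost without shCtrl replicate 1 or 3 or any of the 3 shCAVIN1 libraries, at adjusted p of 0.0771 to 0.128. ELOVL5 therefore took a smaller share of the summed FPKM of the 3 elongases, at 69.0%, 68.2% and 68.7% in shCtrl and 58.6%, 60.5% and 59.0% in shCAVIN1. The share of ELOVL1 went from 27.1% ± 0.636 to 34.4% ± 0.744 and that of ELOVL6 from 4.25% ± 0.205 to 6.24% ± 0.318. A share within a library does not move with the scaling of that library. For each of these 3 shares the groups did not overlap, and p was 0.1 in a two-sided exact permutation test, the lowest that 3 against 3 libraries can reach.

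The desaturases did not move as a set. SCD, the stearoyl-CoA desaturase that makes oleate, was at 124.3, 98.5 and 108 FPKM in shCtrl and 130.6, 116.9 and 120.3 FPKM in shCAVIN1, with overlap between the groups (log2 0.16, interval -0.07 to 0.38, limma adjusted p = 0.199). Without shCtrl replicate 1, the highest control, SCD passed (log2 0.25, adjusted p = 0.0351). Its paralogue SCD5 was at 10.5, 10.6 and 9.51 FPKM in shCtrl and at 19.1, 18.4 and 19.3 FPKM in shCAVIN1, a 1.86-fold rise (log2 0.86, SE 0.0540, limma adjusted p = 7.61e-05). SCD remained the main form per length, and the share of SCD5 in the sum of both was 7.78%, 9.74% and 8.09% in shCtrl and 12.8%, 13.6% and 13.8% in shCAVIN1 (exact permutation p = 0.1). FADS1, the delta-5 desaturase of polyunsaturated fatty acids, was the single synthesis gene that fell. It was at 68.9, 75.4 and 69.3 FPKM in shCtrl and 52.9, 51.3 and 49.9 FPKM in shCAVIN1, without overlap (0.721 of control, log2 -0.47, SE 0.0511, limma adjusted p = 0.000557). FADS2, the delta-6 desaturase encoded next to it, was at 121 ± 4.91 and 119 ± 2.18 FPKM and did not pass (interval -0.15 to 0.08). The ratio of FADS1 to FADS2 within a library, chosen after the values were seen, fell from 0.587 ± 0.0265 to 0.433 ± 0.0171 without overlap (exact permutation p = 0.1). GENCODE 29 places exons of these neighbours on chromosome 11 over each other on opposite strands (FADS1 at 61799625 to 61829318, minus, and FADS2 at 61792980 to 61867354, plus), and whether the counting used the strand is not given in the sources used here. Exons of FEN1 also lie over those of FADS2, on the same strand.

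**Figure D2:**
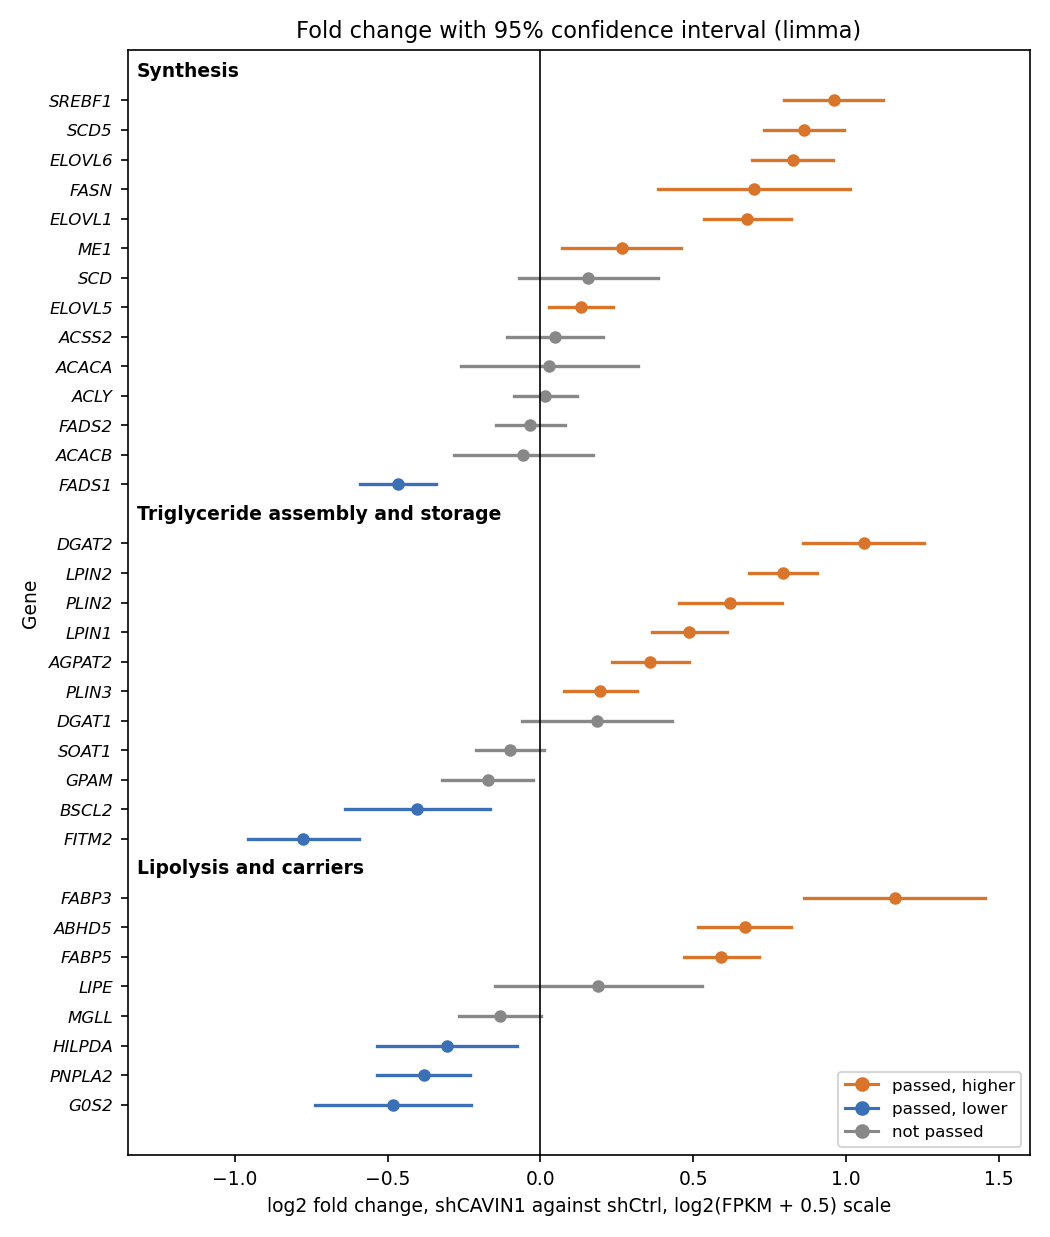
Log2 fold change of shCAVIN1 against shCtrl with its 95% confidence interval from limma for the 33 tested genes, ordered within each role, on the log2(FPKM + 0.5) scale. Orange genes passed as higher, blue genes as lower and grey genes did not pass. The synthesis genes run from FADS1 at -0.47 to SREBF1 at 0.96, the assembly and storage genes from FITM2 at -0.78 to DGAT2 at 1.06, and the lipolysis and carrier genes from G0S2 at -0.48 to FABP3 at 1.16.

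In triglyceride assembly and storage, 6 of 11 tested genes rose, 2 fell and 3 did not pass (median log2 0.20). So 72.7% passed against 55.5% of all tested genes, with 54.5% higher and 18.2% lower against 27.3% and 28.2%. GPAM, a mitochondrial acyltransferase of the entry step of the glycerol phosphate pathway, was at 8.87, 9.78 and 8.72 FPKM in shCtrl and 8.31, 7.60 and 8.19 FPKM in shCAVIN1. The groups did not overlap, but the difference did not pass (log2 -0.17, interval -0.32 to -0.02, limma adjusted p = 0.0530). AGPAT2, which adds the next acyl chain, rose 1.29-fold from 32.5 ± 0.763 to 41.9 ± 2.39 FPKM (limma adjusted p = 0.00171, log2 0.36). The lipins remove the phosphate to give diacylglycerol. LPIN1 was at 9.25, 8.57 and 8.57 FPKM in shCtrl and 12.4, 13.0 and 12.2 FPKM in shCAVIN1 (log2 0.49, SE 0.0507, adjusted p = 0.000452), and LPIN2 was at 7.25, 6.76 and 6.76 FPKM and 12.2, 12.2 and 12.7 FPKM (log2 0.79, SE 0.0461, adjusted p = 5.91e-05). LPIN2 rose more, and its share of the lipin sum was 43.7% in each shCtrl library and 49.3%, 48.3% and 50.8% in the shCAVIN1 libraries, about level with LPIN1. DGAT1 and DGAT2 are unrelated enzymes that both make triglyceride from diacylglycerol. DGAT2, on chromosome 11 at 75759512 to 75801535, plus strand, was low in shCtrl at 0.761, 0.646 and 0.595 FPKM and reached 1.96, 1.88 and 1.93 FPKM in shCAVIN1. Its mean rose 2.88-fold (log2 1.06, SE 0.0820, limma adjusted p = 0.000154), the largest log2 change among the 11. DGAT1 was at 3.20 ± 0.404 and 3.70 ± 0.318 FPKM and did not pass (interval -0.06 to 0.43). The share of DGAT2 in the summed FPKM of the pair was 18.9%, 15.3% and 17.7% in shCtrl and 36.6%, 31.9% and 34.5% in shCAVIN1, so DGAT1 stayed the more abundant per length in all 6 libraries. Exons of HSF1 lie over those of DGAT1 on the opposite strand, and HSF1 stood at 12.7 ± 2.02 and 13.8 ± 1.47 FPKM. The strand setting is not given, so fragments of HSF1 may have been counted in the DGAT1 row and in these shares. SOAT1, which makes cholesteryl esters for the droplet, was at 8.82 ± 0.140 and 8.199 ± 0.324 FPKM and did not pass (interval -0.21 to 0.01).

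Of the droplet proteins among the 34 genes, FITM2 and BSCL2 fell and PLIN2 and PLIN3 rose. FITM2, an endoplasmic reticulum protein needed for droplets to bud, was at 7.07, 6.86 and 8.14 FPKM in shCtrl and 3.88, 4.15 and 4.21 FPKM in shCAVIN1. It fell to 0.555 of control (log2 -0.78, SE 0.0745, limma adjusted p = 0.000335), the lowest log2 value of the 33 genes on the log2(FPKM + 0.5) scale. By the ratio of means the low row of G0S2 fell further, to 0.513 of control. BSCL2, which encodes seipin at the contact between reticulum and droplet, was at 30.1, 28.4 and 26.8 FPKM in shCtrl and 19.2, 24.6 and 20.7 FPKM in shCAVIN1 (log2 -0.40, SE 0.0972, adjusted p = 0.0135). The BSCL2 call was lost without shCAVIN1 replicate 3 (adjusted p = 0.0522), which leaves 1 fall in place of 2 among the 11 genes. A separate row for the read-through transcript HNRNPUL2-BSCL2, which shares exons with BSCL2, stood at 5.88 ± 1.04 and 6.20 ± 1.56 FPKM, so fragments may have been split between the rows. PLIN2, the perilipin that coats droplets in most cells outside fat, was at 20.1, 23.8 and 20.7 FPKM in shCtrl and 33.6, 33.6 and 32.6 FPKM in shCAVIN1. It rose 1.55-fold without overlap (log2 0.62, SE 0.0690, adjusted p = 0.000596). PLIN3, a perilipin that also sits in the cytosol, rose 1.15-fold from 39.6 ± 1.45 to 45.5 ± 1.88 FPKM (adjusted p = 0.0153), and this call was lost without shCtrl replicate 3 or shCAVIN1 replicate 2 or 3, at adjusted p of 0.0522 to 0.0641. The share of PLIN2 in the sum of both perilipins was 34.3%, 36.6% and 34.5% in shCtrl and 43.6%, 41.7% and 41.5% in shCAVIN1.

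**Figure D3:**
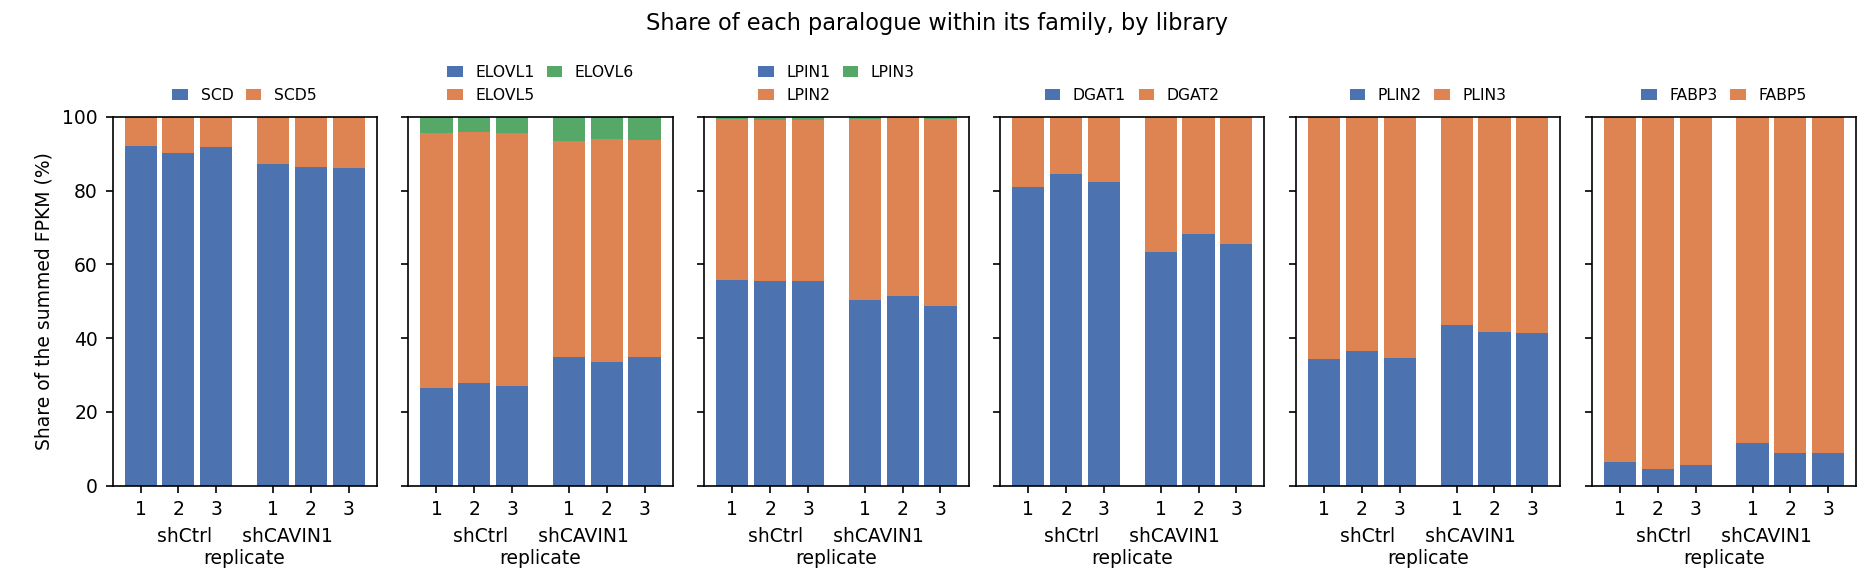
Stacked bars of the share (%) that each paralogue takes of the summed FPKM of its family, for 6 families, with 1 bar per library and the 3 shCtrl libraries left of the 3 shCAVIN1 libraries in each panel. SCD5, ELOVL1, LPIN2, DGAT2, PLIN2 and FABP3 take a larger share in each shCAVIN1 library than in any shCtrl library, most of all DGAT2, from 17.3% to 34.3% on average.

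Among lipolysis genes, the main lipase and its inhibitors passed as lower and its activator as higher on the deposited scale. The lower calls were lost after rescaling to TPM, as given below. PNPLA2 encodes adipose triglyceride lipase, which removes the first acyl chain, and lies on chromosome 11 at 818902 to 825573, plus strand. It was at 39.8, 34.2 and 35.8 FPKM in shCtrl and 27.5, 28.6 and 27.6 FPKM in shCAVIN1, without overlap (log2 -0.38, SE 0.0621, limma adjusted p = 0.00276). ABHD5, the coactivator that binds this lipase, was at 3.48, 3.79 and 3.58 FPKM in shCtrl and 6.31, 5.61 and 6.23 FPKM in shCAVIN1, a 1.67-fold rise (log2 0.67, SE 0.0626, adjusted p = 0.000303). G0S2, a small protein that inhibits the lipase, was low throughout, at 0.617, 0.762 and 0.715 FPKM in shCtrl and 0.295, 0.413 and 0.366 FPKM in shCAVIN1 (log2 -0.48, SE 0.106, adjusted p = 0.00925). The G0S2 row passed the filter of 0.5 FPKM only through shCtrl, as its mean was 0.698 FPKM there and 0.358 FPKM in shCAVIN1. HILPDA, an inhibitor of the same lipase that hypoxia induces, was at 13.1, 16.01 and 16.4 FPKM in shCtrl and 11.9, 12.9 and 11.5 FPKM in shCAVIN1 (log2 -0.31, SE 0.0944, adjusted p = 0.0329). The HILPDA call was lost without shCtrl replicate 2 or 3 or any of the 3 shCAVIN1 libraries, at adjusted p of 0.0524 to 0.107. Ratios within a library, chosen after the values were seen, set these genes beside the lipase. ABHD5 stood at 0.0876, 0.111 and 0.1001 of PNPLA2 in shCtrl and at 0.229, 0.196 and 0.225 of it in shCAVIN1, without overlap (exact permutation p = 0.1). Both genes had already separated, in opposite directions, so this outcome was fixed by their own values and is no further test. G0S2 went from 0.0193 ± 0.00344 to 0.0128 ± 0.00189 of PNPLA2, also without overlap, and HILPDA overlapped at 0.418 ± 0.0777 and 0.434 ± 0.0161. Of the later lipases, LIPE (hormone-sensitive lipase) was near the filter at 0.679 ± 0.0870 and 0.852 ± 0.219 FPKM and did not pass (interval -0.15 to 0.53). MGLL, the monoacylglycerol lipase, was at 5.20 ± 0.222 and 4.70 ± 0.205 FPKM and did not pass (interval -0.27 to 0.00, adjusted p = 0.0854), although its groups did not overlap.

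The cytosolic fatty acid carriers rose. FABP3, the heart-type binding protein, was at 1.10, 0.834 and 1.05 FPKM in shCtrl and 3.35, 2.60 and 2.58 FPKM in shCAVIN1, a 2.86-fold rise and the highest log2 value of the 33 genes (log2 1.16, SE 0.122, limma adjusted p = 0.00047). By the ratio of means DGAT2 stood slightly higher, at 2.88. FABP5, the epidermal-type protein and the more abundant per length, was at 16.2, 17.9 and 17.7 FPKM in shCtrl and 25.4, 26.7 and 26.6 FPKM in shCAVIN1 (log2 0.59, SE 0.0507, adjusted p = 0.000217). FABP3 took 6.32%, 4.46% and 5.63% of the summed FPKM of the pair in shCtrl and 11.7%, 8.86% and 8.86% in shCAVIN1, without overlap. FABP5 has processed pseudogenes, and the row of FABP5P3 was at 0.0306 ± 0.0270 FPKM in shCtrl and 0.0123 ± 0.0213 FPKM in shCAVIN1. With 3 rises and 3 falls in 8, the lipolysis and carrier genes had a median log2 of 0.03. So 75.0% passed against 55.5% of all tested genes, with 37.5% higher and 37.5% lower against 27.3% and 28.2%. Summed over roles as deposited, the 14 synthesis genes stood at 541 to 571 FPKM in shCtrl and 593 to 626 in shCAVIN1, the 12 assembly and storage genes at 163 to 172 and 186 to 199, and the 8 lipolysis and carrier genes at 79.1 to 81.1 and 80.4 to 82.4 FPKM.

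The scaling of the libraries bears on the smaller changes. The TPM scale moved the median log2 fold change of all tested genes from -0.02 to 0.09, and on it 12 of the 33 genes passed as higher and 1, FITM2, as lower. The calls of ME1, ELOVL5, FADS1, AGPAT2, BSCL2, PLIN3, PNPLA2, G0S2 and HILPDA were lost, with adjusted p between 0.0704 and 0.44. Relative to the median of all tested genes the values moved little: PNPLA2 stood at -0.36 as deposited and -0.35 after TPM, FADS1 at -0.45 and -0.44, AGPAT2 at 0.38 and 0.39, and G0S2 at -0.46 and -0.55. When libraries were instead scaled to their sum without the 10 most abundant rows, all calls but that of HILPDA were kept (21 of 22).

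Promoter sequence was set beside these results as a description, and a role of SREBF1 in them was not tested. RefSeq promoters (GRCh38.p14) were at hand for 27 of the 34 genes, in 41 windows, and not for FASN, DGAT1, DGAT2, LPIN3, MGLL, HILPDA and FABP5, which were not searched. The 250 bases before each start were searched on both strands for 3 motifs. The sterol regulatory element was searched as TCACNCCAC, the E-box as CACGTG and the box bound by NF-Y as CCAAT, and no motif shared a base with another in these windows. The sterol element was in 1 of the 41 windows (2.44%), that of PNPLA2, against 0.883% of all 35116 promoters, and 1 window is too few to compare these shares. CACGTG was in 3 windows (7.32%), of ELOVL5, LPIN2 and PLIN2, against 6.34%, and CCAAT in 14 windows (34.1%) of 11 genes, against 32.0%, so the last 2 shares lay near those of all promoters. The 3 genes with CACGTG all passed as higher (ELOVL5 with the fragile call given above), where 48.5% of the 33 tested genes and 27.3% of all tested genes did. The 11 genes with CCAAT were ACACA, ACACB, ACLY, ACSS2, ELOVL1, ELOVL5, LIPE, PLIN3, SCD, SCD5 and SOAT1, of which 4 passed as higher and none as lower. Beside them, 48.5% of the 33 tested genes passed as higher and 18.2% as lower, and 27.3% and 28.2% of all tested genes. With 11 genes, these counts are too small to compare. Of these 4, ELOVL5 and PLIN3 had fragile calls. Calls among all genes with these motifs were not counted, and a link of motif to change was not tested. A match of letters is a description of the sequence and not of binding.

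The windows below show the 3 CACGTG matches, the sterol element match in the lipase that fell, and SCD, the abundant desaturase that did not pass, with its pair of CCAAT boxes. Capitals mark the motif letters, and each sequence reads 5′ to 3′ on the strand of the gene. They lie at chr9:19127493-19127742 (PLIN2, minus strand), chr6:53348951-53349200 (ELOVL5, minus), chr18:3013145-3013394 (LPIN2, minus), chr11:818664-818913 (PNPLA2, plus) and chr10:100346983-100347232 (SCD, plus).
PLIN2: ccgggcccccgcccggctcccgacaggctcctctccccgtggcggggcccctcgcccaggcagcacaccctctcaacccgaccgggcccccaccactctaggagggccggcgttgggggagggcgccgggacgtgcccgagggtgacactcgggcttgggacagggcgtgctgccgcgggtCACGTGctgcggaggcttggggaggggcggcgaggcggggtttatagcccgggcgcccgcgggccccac
ELOVL5: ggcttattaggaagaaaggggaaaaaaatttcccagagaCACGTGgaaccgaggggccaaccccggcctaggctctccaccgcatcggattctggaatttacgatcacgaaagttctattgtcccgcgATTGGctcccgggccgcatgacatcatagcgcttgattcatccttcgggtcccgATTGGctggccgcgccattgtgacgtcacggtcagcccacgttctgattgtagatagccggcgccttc
LPIN2: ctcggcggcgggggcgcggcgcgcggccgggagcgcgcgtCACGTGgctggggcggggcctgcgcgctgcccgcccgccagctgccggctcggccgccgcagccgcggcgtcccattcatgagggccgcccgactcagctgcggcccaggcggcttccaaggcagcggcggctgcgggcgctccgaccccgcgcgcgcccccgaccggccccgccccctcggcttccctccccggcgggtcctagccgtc
PNPLA2: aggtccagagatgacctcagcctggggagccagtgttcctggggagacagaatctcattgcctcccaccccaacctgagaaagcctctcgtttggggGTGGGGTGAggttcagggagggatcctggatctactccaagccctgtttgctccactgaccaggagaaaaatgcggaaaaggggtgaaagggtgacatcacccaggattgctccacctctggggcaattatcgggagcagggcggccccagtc
SCD: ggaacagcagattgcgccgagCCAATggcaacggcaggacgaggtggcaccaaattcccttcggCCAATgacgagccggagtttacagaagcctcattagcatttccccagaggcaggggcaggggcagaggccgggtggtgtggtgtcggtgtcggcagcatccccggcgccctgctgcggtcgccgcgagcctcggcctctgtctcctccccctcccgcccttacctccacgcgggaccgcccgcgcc
The CACGTG letters begin 69 bases before the start in PLIN2, 211 in ELOVL5 and 210 in LPIN2. The PNPLA2 match, on the reverse strand, begins 153 bases before the start, and the CCAAT boxes of SCD begin at 229 and 186 bases.

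Other genes of the same pathways were taken from 7 lists with 79 genes, all found, 10 of them under older symbols. Of these, 59 passed the filter, 22 rose (37.3%), 16 fell (27.1%) and 21 did not pass, with a median log2 of 0.02. Among all tested genes 27.3% passed as higher and 28.2% as lower, 55.5% in all, which is the background for each list below as well. The lists too were chosen with earlier results of these data known, so their shares are a description and not a test. Among regulators of lipogenesis 5 of 12 rose and 4 fell. USF1, an E-box factor, rose 1.67-fold from 12.7, 14.8 and 14.2 FPKM to 23.1, 23.7 and 22.8 FPKM (log2 0.72, SE 0.0608, limma adjusted p = 0.000204), and MID1IP1, which promotes polymerisation of acetyl-CoA carboxylase, rose 1.45-fold (log2 0.52). SREBF2, the sister factor of SREBF1 for cholesterol genes, fell from 35.3 ± 3.44 to 28.9 ± 0.905 FPKM (log2 -0.28, adjusted p = 0.0186), and without shCAVIN1 replicate 3 its adjusted p was 0.0681. MBTPS1, the protease that cuts SREBPs in the Golgi, fell (log2 -0.34), and INSIG1, which retains SREBPs in the reticulum and is itself a target of theirs, rose from 36.5 ± 3.81 to 48.9 ± 2.07 FPKM (log2 0.42). INSIG2, the paralogue of INSIG1, went the other way, from 7.65 ± 0.875 to 4.80 ± 0.287 FPKM (log2 -0.61), and SCAP of the same list also fell (log2 -0.19). The lipogenic factors MLXIPL (ChREBP) and PPARG were below the filter, at 0.0493 ± 0.0134 and 0.0379 ± 0.0134 FPKM and at 0.304 ± 0.0651 and 0.510 ± 0.143 FPKM.

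Among enzymes of citrate and NADPH supply 3 of 11 rose, 2 fell and 6 did not pass, so 45.5% passed, near the 55.5% of all tested genes. PGD of the pentose phosphate pathway rose 1.44-fold (log2 0.52), and the cytosolic isocitrate dehydrogenase IDH1 fell from 23.3 ± 2.89 to 15.96 ± 0.162 FPKM (log2 -0.53). PRKAA1, a catalytic subunit of the AMP-activated kinase that inhibits acetyl-CoA carboxylase, fell from 24.4 ± 1.52 to 15.9 ± 0.295 FPKM (log2 -0.60). The alternative catalytic subunit PRKAA2 did not pass, at 3.80 ± 0.736 and 3.54 ± 0.235 FPKM (log2 -0.07). In elongation, 5 of 9 rose and 1 fell. ELOVL7 rose from 1.63, 1.66 and 1.69 FPKM to 3.99, 3.68 and 3.84 FPKM (log2 1.003, SE 0.0564, limma adjusted p = 5.46e-05) and ELOVL4 from 1.01 ± 0.133 to 2.33 ± 0.213 FPKM (log2 0.90). The one that fell was ELOVL2, an elongase of polyunsaturated chains, from 5.73, 6.18 and 6.03 FPKM to 3.03, 2.79 and 2.98 FPKM (log2 -0.92, SE 0.0548, adjusted p = 6.62e-05).

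All 8 tested genes of the glycerolipid list passed, 4 higher and 4 lower. GPAT2, a mitochondrial acyltransferase of the GPAM family, showed the largest change of the list, from 6.47, 5.63 and 5.66 FPKM to 0.252, 0.224 and 0.300 FPKM (log2 -3.08, SE 0.0828, limma adjusted p = 5.52e-06). The GPAT2 row passed the filter of 0.5 FPKM only through shCtrl, as its mean was 5.92 FPKM there and 0.259 FPKM in shCAVIN1. Its log2 value ran from -4.07 to -2.46 over the alternatives. PLPP3, a lipid phosphate phosphatase of the cell surface, rose from 1.10, 1.04 and 1.06 FPKM to 4.98, 4.93 and 5.08 FPKM (log2 1.81, SE 0.0534, adjusted p = 7.49e-06), and AGPAT5 fell from 19.9 ± 1.21 to 14.1 ± 0.215 FPKM (log2 -0.48). Of 10 droplet proteins 2 rose and 4 fell. AUP1, a droplet protein that also acts in degradation at the reticulum, fell from 51.6 ± 1.95 to 33.0 ± 2.48 FPKM (log2 -0.64), LDAF1, the partner of seipin, fell from 9.76 ± 0.789 to 7.36 ± 0.130 FPKM (log2 -0.38, adjusted p = 0.00304), as BSCL2 did, and SPART rose 1.30-fold (log2 0.37). The fat-cell droplet genes PLIN1, PLIN4 and CIDEC were below the filter. Of 7 further lipases 3 rose and 1 fell: NCEH1, a cholesteryl ester hydrolase, rose from 12.8, 13.4 and 11.03 FPKM to 24.3, 23.8 and 24.3 FPKM (log2 0.94, adjusted p = 0.00016), DDHD1 rose 1.27-fold, and PNPLA3, a relative of PNPLA2, fell from 1.53 ± 0.109 to 1.05 ± 0.0896 FPKM (log2 -0.39). In the list of carriers and uptake, FABP4, FABP6, FABP7 and CD36 were below the filter, and SLC27A1 and SLC27A4 did not pass, at 2.81 ± 0.0783 and 2.94 ± 0.162 FPKM and at 9.58 ± 0.370 and 9.70 ± 0.710 FPKM. After rescaling to TPM the calls of SREBF2, MBTPS1, INSIG1, IDH1, PRKAA1, AGPAT5, AUP1, LDAF1, SPART and PNPLA3 were lost, and those of USF1, MID1IP1, PGD, ELOVL2, ELOVL4, ELOVL7, GPAT2, PLPP3, NCEH1 and DDHD1 were kept.

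**Figure D4:**
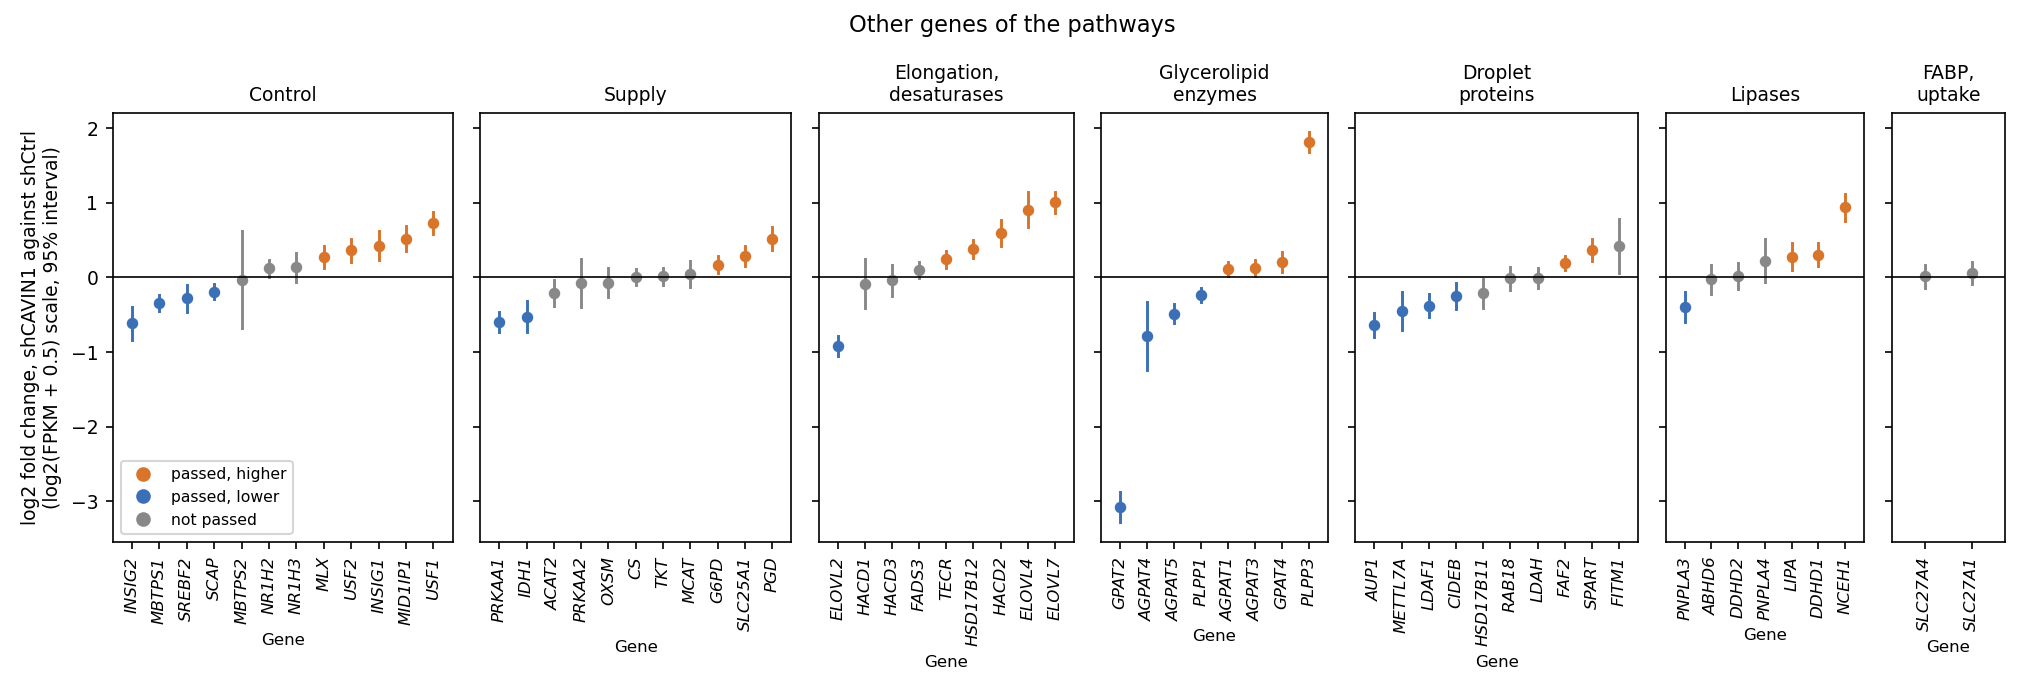
Log2 fold change of shCAVIN1 against shCtrl with its 95% confidence interval for the 59 tested genes of the 7 further lists, sorted within each list, on the log2(FPKM + 0.5) scale. Orange genes passed as higher, blue as lower and grey did not pass, with GPAT2 at -3.08 and PLPP3 at 1.81 as the ends of the range. The GPAT2 row passed the filter only through shCtrl.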

How the data were processed

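Total RNA of 6 WPMY-1 libraries, 3 per group, was sequenced after TRIzol extraction and a stranded Illumina kit, per the labels' protocols. The authors deposited FPKM values per gene symbol. The submitters' processing notes list TopHat, TopHat2 (as 2.2.5), bcl2fastq 2.17.1.14 and CASAVA, with GRCh38. The sources used here do not name the quantifier, annotation, filters or strand setting. The number of fragments is not in the table, so no counting interval is given, and counting error weighs most on low genes. Among genes above 0 in at most 3 libraries, the most common ratio of values to shCtrl replicate 1 (34 to 61 of 225 to 448 genes within 0.04 log2) puts the depth of the others at roughly 60.8% to 93.2% of it.

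Rows with a mean FPKM of at least 0.5 were tested with limma 3.58.1 (R 4.3.3) after log2(FPKM + 0.5) (group as the only term, variance trend, Benjamini-Hochberg adjustment over 13941 rows). A run of the test on simulated data, with few changed genes and independent noise, differed from these data and is no check of the calls. Log2 fold changes understate changes of low genes, and folds are ratios of mean FPKM. All 34 genes are described. Shares and ratios within a library were compared by exact permutation, and the ratios were chosen after the values were seen. Up to 3 genes per further list with the lowest adjusted p are named (2 by level where none passed), plus SREBF2, INSIG1, MLXIPL and PPARG. INSIG2 and SCAP are given beside INSIG1, and PRKAA2 beside PRKAA1, without their values under the alternatives. The genes and lists were chosen with earlier results of these data known. An item of the epithelial marker list is not reported here. Positions are from GENCODE 29 (GRCh38). Older symbols were matched through RefSeq synonyms. Alternatives were other pseudocounts, filters, scalings and variance settings, a replicate block and leaving out each library.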

Additional observations from a re-analysis of the deposited data

How the results depend on the processing

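Over 17 alternatives the log2 change of CAVIN1 stayed past the threshold, and without each library in turn it was -1.30 to -1.21. TPM scaling moved the counts most: 2199 of all tested genes passed as higher and 1213 as lower (3807 and 3927 as deposited), and of the 34 genes 1 passed as lower in place of 6, with 0 falls in synthesis, 1 in assembly and storage and 0 in lipolysis and carriage. Of the further genes, 10 passed as higher and 4 as lower under TPM, in place of 22 and 16. Without 1 library in turn, 3064 to 4267 of all tested genes passed as higher and 3154 to 4201 as lower, with 13 to 15 rises and 4 to 6 falls among the 34 genes, and 1 to 2 falls in assembly and storage. The log2 fold change of a gene that had not passed changed sign for ACACB (0.035), FADS2 (0.090) and SOAT1 (0.016) under TPM, FADS2 (0.038) with the sum without the 10 most abundant rows, ACLY (-0.024) under quantile normalization and without shCtrl replicate 2, ACACA without shCAVIN1 replicate 1 or shCtrl replicate 2, and SLC27A4 without shCAVIN1 replicate 2 or 3 or shCtrl replicate 3. Without 1 library in turn the log2 fold change was -0.013 to 0.035 for ACLY, -0.090 to 0.12 for ACACA and -0.026 to 0.072 for SLC27A4. The ratio of HILPDA to PNPLA2 differed by 0.0157 between the groups, and by -0.0291 (without shCtrl replicate 1) to 0.0405 without 1 library in turn. ELOVL5 also missed the threshold with robust variances (adjusted p = 0.0645) and no variance trend (0.0567), ME1 and HILPDA with no filter on low values (0.0571 and 0.0517), and HILPDA and SREBF2 with the sum without the 10 most abundant rows (0.0554 and 0.0623). GPAM passed with a mean FPKM filter of 2 (0.0444), median-of-ratios scaling (0.0476) and robust variances (0.0482). With that filter of 2, ACACB, ME1, DGAT2, LIPE, G0S2, FABP3, ELOVL4 and PNPLA3 were not tested. The cause of these changes was not tested. Same-numbered libraries correlated in their deviations from the group means at 0.147, 0.0292 and -0.0998, and differently numbered ones at -0.206 to 0.188. These values do not show pairing by number and, with 3 libraries per group, cannot exclude it. With the replicate number as a block 7167 of all tested genes passed in place of 7734, and 20 of the 22 calls among the 34 genes were kept, without ME1 (adjusted p = 0.0686) and ELOVL5 (0.0827).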
